A study of Arabidopsis thaliana with 21 samples.

Results

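AtCEP5 is a peptide hormone of Arabidopsis thaliana, one of the C-TERMINALLY ENCODED PEPTIDEs (CEPs) that plant cells secrete. The comparison described here sets 3 root libraries taken 12 h after AtCEP5 treatment against 3 taken 6 h after it, across all genes. The members are the 6 count columns labelled AtCEP5 at these times, of 21 libraries in all. The other 15 libraries were 3 each of AtCEP5 24 h, of mock 6, 12 and 24 h, and of roots before treatment (0 h). The labels give treatment and time for each library, roots as the tissue and root meristem cell as the cell type. Genotype, plant age, peptide dose, mock solution, light regime and hour of sampling are not given there.

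CEP peptides are perceived by leucine-rich repeat receptor kinases in the vasculature, and they are best known for limiting root growth and for signalling nitrogen shortage between root and shoot. Roots take up nitrate through high- and low-affinity transporters whose genes respond to nitrate supply and to signals from the shoot. They take up iron by reducing ferric iron at the surface and importing ferrous iron, chelating it with nicotianamine, and storing the excess in vacuoles and in ferritin. Genes of both systems also change with the time of day and with nutrient status. Values of mock roots at the same 2 times are therefore given beside those of AtCEP5 for many genes, but not for all.

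The 6 libraries held 10812662 to 13910442 counts. Pearson correlations were 0.9695 to 0.9833 between AtCEP5 12 h replicates and 0.9826 to 0.9855 between AtCEP5 6 h replicates. Between AtCEP5 libraries of different times they were 0.9657 to 0.9829. The lowest within 12 h, that of replicates 1 and 3, was thus below most pairs across the times. Genes for ribosomal RNA took 1.96% of the counts in AtCEP5 12 h replicate 3, against 0.320 to 0.572% in the other 5, and results that rest on that library are given with and without it. All 8 markers of the root meristem had reads, with a summed level of 80.8 to 89.7 FPKM at 12 h and 85.0 to 89.9 FPKM at 6 h. Markers of other types had reads too, so the libraries were not of meristem cells alone. At 12 h, the 5 of root hair and elongating epidermis summed to 121 to 152 FPKM. The 4 of differentiated endodermis summed to 127 to 154 FPKM. No marker of any of the 7 cell types tested was called, but the summed levels of 2 types did not overlap between the times. The 3 xylem markers summed to 47.3 to 58.6 FPKM at 12 h, against 66.2 to 74.6 FPKM at 6 h. Most of that sum was XCP1, with means of 47.2 FPKM at 12 h and 63.0 FPKM at 6 h. The 3 root cap markers summed to 12.2 to 18.4 FPKM at 12 h, against 18.8 to 20.5 FPKM at 6 h. Their means at 12 h and 6 h were 7.07 and 9.87 FPKM for BRN1 and 4.78 and 5.53 FPKM for BRN2. SMB went the other way, at 4.22 and 4.08 FPKM. The part of these differences between sums in the results was not tested, and in bulk roots fewer cells of a type and less RNA per cell cannot be told apart. The labels do not say whether replicates came from separate cultures, and p-values here then measure only how far these samples spread, which may be technical.

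Of 19938 genes tested, 134 (0.672%) differed between AtCEP5 12 h and 6 h at an adjusted p under 0.05 in edgeR's quasi-likelihood test. Of these, 63 (0.316%) were higher at 12 h and 71 (0.356%) were lower. The change was at least 1 on the log2 scale for 72 of them, 43 higher and 29 lower, and at least 2 for 12. Without correction, 1881 genes (9.43%) had a p under 0.05. All 134 had non-overlapping groups, as had 3282 (16.5%) of all genes tested. Where groups of a called gene are said below not to overlap, this describes the values and adds no support to the call. Genes of iron handling and of nitrate transport stood among the largest changes in both directions. The number of calls fell to 24 without AtCEP5 6 h replicate 1, 36 without 6 h replicate 2, 86 without 6 h replicate 3, 50 without 12 h replicate 1 and 33 without 12 h replicate 2. Without 12 h replicate 3, the AtCEP5 library rich in ribosomal RNA, 146 genes were called, and 90 of the 134 (67.2%) were among them. Calls held without each of the 6 libraries for 19 genes, 11 higher and 8 lower. These include AT4G33720, OSM34, NRT1.8, TLL1, EFE and UMAMIT29 among the higher and NRT2:1, NAS4, ABR1 and PHF1 among the lower.

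The change with the smallest adjusted p was that of AT4G33720, a gene annotated only as a member of the cysteine-rich secretory protein (CAP) family, to which pathogenesis-related protein 1 belongs (4:16182743-16183619, plus strand, TAIR10.1). It has no symbol in the reference and was chosen after its values were seen. It stood at 208, 202 and 207 CPM (counts scaled to library size) in AtCEP5 12 h libraries, against 5.35, 4.92 and 9.32 CPM in AtCEP5 6 h libraries. All 12 h libraries were far above all 6 h libraries, with a log2 fold change of 4.97 ± 0.36 (SE, adjusted p = 4.13e-08). With mock, the gene had 106 reads in the 3 libraries at 12 h and 3 reads at 6 h, a ratio of 29.0 scaled for depth (95% counting interval 9.66 to 143). The time change was therefore present and called with mock as well (log2 4.72, adjusted p = 0.0121), at a far lower level. The fitted difference between the treatments was 0.25 on the log2 scale and did not pass (adjusted p = 0.999). It rests on few mock reads at 6 h. Before treatment the gene averaged 0.839 CPM, and at AtCEP5 24 h it averaged 436 CPM. Of the 12 genes of the CAP family tested, it was the only one called, where 0.672% of all genes were.

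OSM34 encodes osmotin 34, a thaumatin-like protein of defence and osmotic stress (4:7024852-7026224, minus strand). It stood at 245, 205 and 185 CPM at AtCEP5 12 h, against 41.8, 41.9 and 47.1 CPM at AtCEP5 6 h. The groups lay far apart, a fitted 4.86-fold difference (log2 2.28 ± 0.18, adjusted p = 9.66e-08). With mock, the gene stood at 40.5, 33.6 and 34.4 CPM at 12 h and at 27.6, 36.5 and 36.3 CPM at 6 h, and these groups overlapped (log2 0.11, adjusted p = 0.855). OSM34 was the only gene (0.00502% of those tested) whose change between 6 and 12 h differed between AtCEP5 and mock, by 2.17 ± 0.25 on the log2 scale (adjusted p = 2.22e-04). That difference was called in each alternative run, at 2.05 to 2.32. Without correction, 756 genes (3.79%) had a p under 0.05 for this difference. Before treatment OSM34 had averaged 204 ± 33.8 CPM (SD, n = 3), and at AtCEP5 24 h it averaged 431 ± 73.1 CPM. Its AtCEP5 6 h level was thus low beside both the roots before treatment and the later times, while the mock libraries stayed low at 12 h. Of the 15 thaumatin and osmotin genes tested it was the only one called higher, and AT1G20030 and AT4G36010 were called lower. Over all genes, 0.316% were called higher and 0.356% lower. Both of these were called lower with mock too, at −0.85 (adjusted p = 0.0312) and −0.98 (adjusted p = 0.0458). AT1G20030 lost its AtCEP5 call without any one of the 6 libraries (adjusted p up to 0.259), and AT4G36010 without replicate 1 or 2 of either time (adjusted p up to 0.116).

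**Figure D1:**
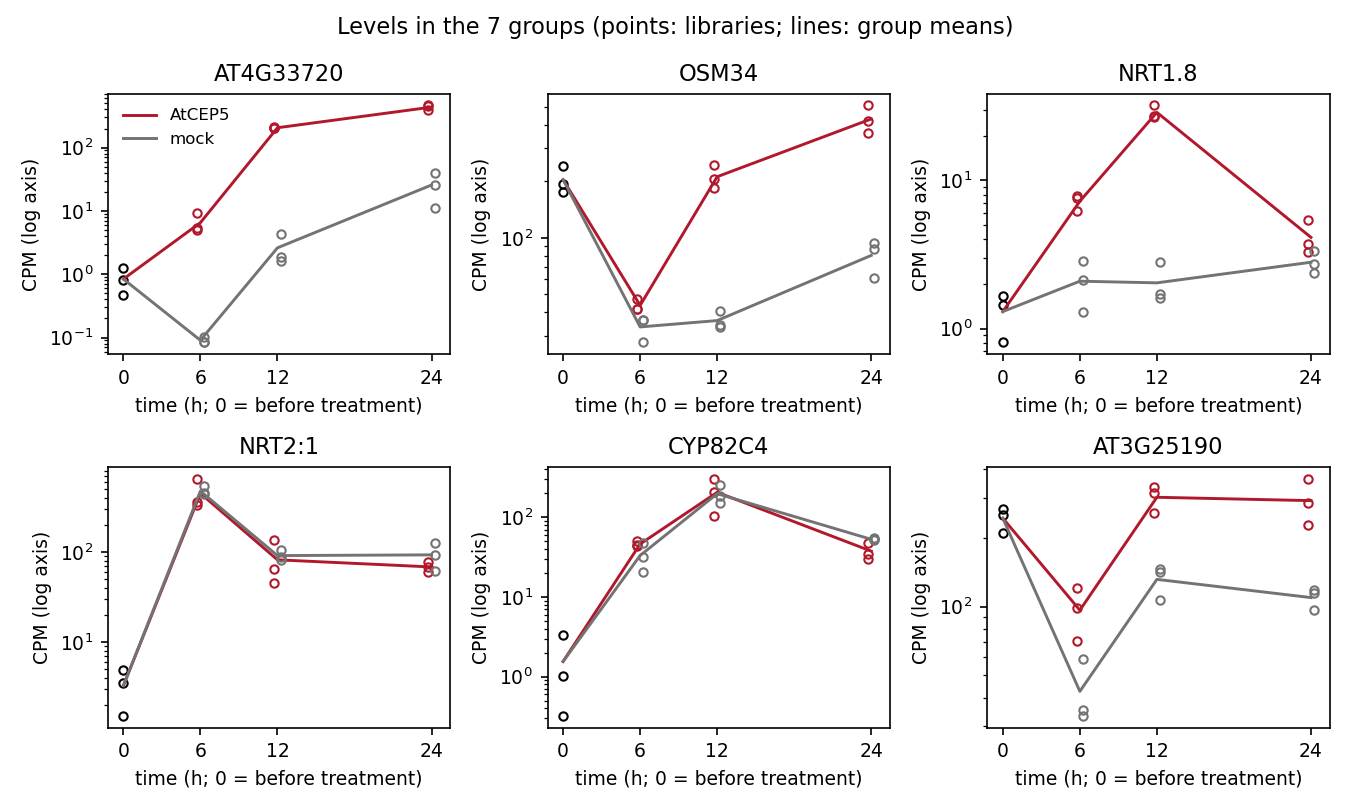
Levels of 6 genes in the 7 groups, in CPM on a log axis against time in hours (0 is before treatment). Points are libraries and lines join group means, with AtCEP5 in red and mock in grey. OSM34 and NRT1.8 are higher at AtCEP5 12 h than at 6 h while the mock points of the 2 times overlap, and NRT2:1, CYP82C4 and AT3G25190 move in the same direction in both treatments.

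Iron genes held the largest share of called members among the 33 lists. Of 22 tested, 4 rose and 2 fell (27.3%), where 0.672% of all genes tested were called. The lists were chosen with earlier results of these data known. The median log2 fold change was 0.28, against −0.0029 over all genes. With mock 2 rose and 1 fell, with a median of 0.11. Those that rose with AtCEP5 serve uptake and chelation (FRO2, NAS1 and NAS2) and storage (FER1), and those that fell were NAS4 and OPT3. Another 6 genes of iron handling were called outside the list. FRD3 and the vacuolar transporters among them were chosen after their values were seen.

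The uptake genes came first in this group. FRO2, the ferric reductase of the root surface, stood at 240, 377 and 508 CPM at AtCEP5 12 h, against 159, 140 and 166 CPM at AtCEP5 6 h. Every 12 h library was above every 6 h library, and the change was 1.27 ± 0.28 (adjusted p = 0.0275). CYP82C4, a cytochrome P450 that makes the iron-mobilising coumarin sideretin, stood at 105, 209 and 304 CPM at 12 h, against 43.3, 45.03 and 50.5 CPM at 6 h. Its groups did not overlap either, and the change was 2.15 ± 0.36 (adjusted p = 0.00433). Replicate 1 was the lowest and replicate 3 the highest of the 12 h libraries for both genes. IRT1, the ferrous iron importer, changed by 1.23 but did not pass (adjusted p = 0.139). FRO2 lost its call without any one of the 6 libraries except 12 h replicate 1 (1.004, adjusted p = 0.109, without 12 h replicate 3, and adjusted p up to 0.161). CYP82C4 lost it only without 6 h replicate 1 (adjusted p = 0.0521). With mock the changes were 1.33 for FRO2 and 2.57 for CYP82C4, both called.

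Nicotianamine synthases make the chelator that carries iron and other metals within the plant. All 3 tested were called, in 2 directions, beside 0.672% of all genes. NAS2 stood at 86.1, 157 and 186 CPM at AtCEP5 12 h, against 43.8, 39.6 and 35.6 CPM at 6 h (1.85 ± 0.36, adjusted p = 0.0148). NAS1 stood at 191, 301 and 409 CPM at 12 h, against 161, 131 and 118 CPM at 6 h (1.13 ± 0.21, adjusted p = 0.0123). NAS4 stood at 15.7, 12.6 and 15.1 CPM at 12 h, against 71.4, 47.9 and 33.0 CPM at 6 h (−1.81 ± 0.27, adjusted p = 0.00152). NAS1 and NAS2 were thus above their 6 h levels in every 12 h library, and NAS4 below it in every one. NAS4 kept its call without each library. NAS1 lost it without 6 h replicate 2 or 3 (adjusted p up to 0.0689), and NAS2 without 12 h replicate 2 or any one of the 6 h libraries (adjusted p up to 0.0916). With mock the changes were 1.01 (adjusted p = 0.254), 0.87 (adjusted p = 0.0534) and −1.24 (adjusted p = 0.0267) for NAS2, NAS1 and NAS4.

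Storage and transport genes were also called. Of 7 tested genes annotated to the vacuolar iron transporter (VIT) family, 3 rose and none fell, where 0.316% of all genes tested rose. These 3 have no symbol, and the family was chosen after their values were seen. AT1G21140 stood at 27.6, 42.0 and 40.7 CPM at AtCEP5 12 h, against 3.95, 5.07 and 6.79 CPM at 6 h (2.79 ± 0.37, adjusted p = 5.6e-04). AT1G76800 stood at 16.7, 25.2 and 20.9 CPM at 12 h, against 3.37, 5.85 and 4.92 CPM at 6 h (2.15 ± 0.30, adjusted p = 7.77e-04). AT3G25190 stood at 313, 333 and 256 CPM at 12 h, against 70.8, 98.3 and 120 CPM at 6 h (1.64 ± 0.22, adjusted p = 5.6e-04). Each VIT gene was separated between the times, kept its call without each library, and was called in the same direction with mock, at 2.94, 1.36 and 1.63. VIT1, the founding member of the family, did not change detectably (0.04, adjusted p = 0.996).

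FER1, which encodes ferritin, the iron-storing protein of plastids, stood at 129, 194 and 195 CPM at AtCEP5 12 h, against 53.6, 76.7 and 88.6 CPM at 6 h. Its groups did not overlap (1.24 ± 0.22, adjusted p = 0.00766), and mock changed by 1.22. FER1 overlaps AT5G01595 on the opposite strand, so its reads are uncertain where strand was not used in counting, and its call was lost without 12 h replicate 2 or 6 h replicate 1 (adjusted p up to 0.0916). NRAMP3, which releases iron from the vacuole, rose by 1.33 ± 0.27 (adjusted p = 0.0171), but without 12 h replicate 3 it changed by 1.06 (adjusted p = 0.0662). With mock NRAMP3 changed by 1.08 (adjusted p = 0.0619). FRD3, the citrate effluxer that loads iron into the xylem, rose by 1.02 ± 0.20 (adjusted p = 0.0148). OPT3, a phloem transporter for shoot-to-root iron signalling, stood at 46.6, 45.8 and 67.6 CPM at 12 h, against 116, 89.6 and 87.5 CPM at 6 h (−0.87 ± 0.20, adjusted p = 0.0486). It was below its 6 h level in all 3 libraries, though the call held only without 12 h replicate 3 (adjusted p up to 0.353). NRAMP3 also lost its call without 12 h replicate 2 or 6 h replicate 1 or 2 (adjusted p up to 0.149), and FRD3 without 12 h replicate 2 or 6 h replicate 1 or 2 (adjusted p up to 0.135).

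**Figure D2:**
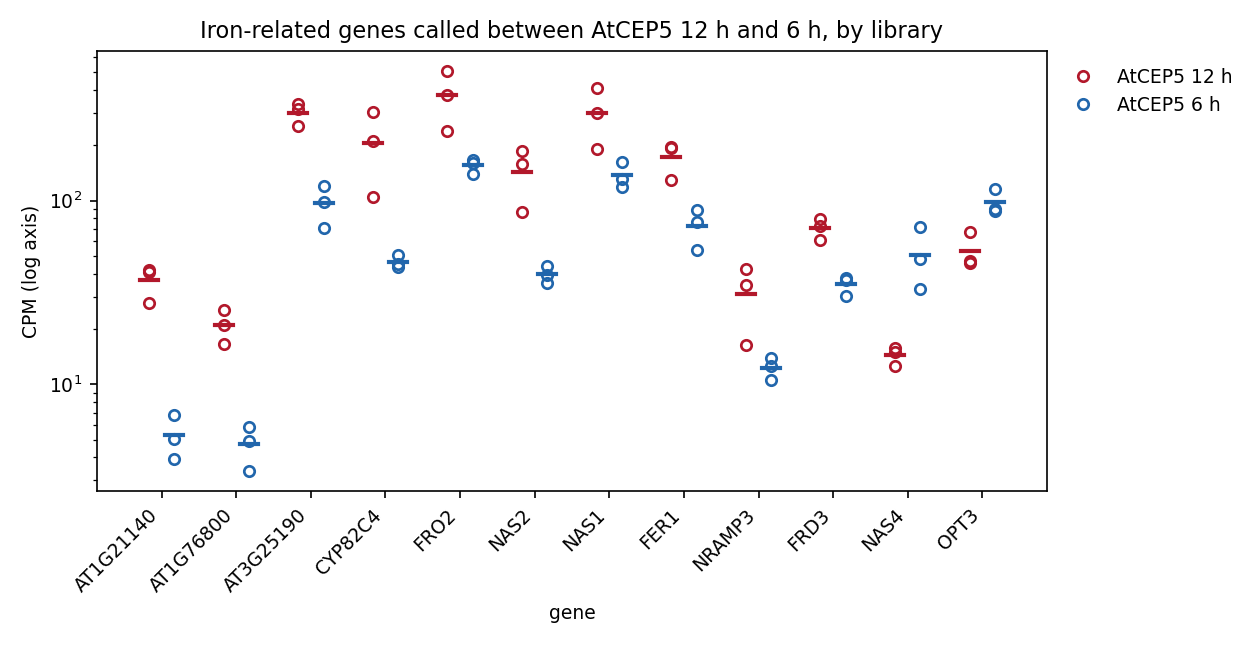
CPM on a log axis of 12 iron-related genes called between AtCEP5 12 h (red, left) and AtCEP5 6 h (blue, right). Points are the 3 libraries of a group and bars their mean. The 10 genes on the left are higher in every 12 h library than in any 6 h library, and NAS4 and OPT3 are lower.

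Of 36 genes for nitrate and nitrogen tested, 1 rose and 4 fell (13.9%), where 0.672% of all genes tested were called. A negative log2 fold change was found for 28 of the 36 (median −0.38), while 9866 of all 19938 genes had a positive one. Members of a list were read in the same 6 libraries, so their signs are not separate observations. With mock 3 fell, and the median was −0.28. The member that rose was NRT1.8, a transporter that removes nitrate from the xylem sap. NRT1.8 stood at 27.4, 32.2 and 27.0 CPM at AtCEP5 12 h, against 6.25, 7.80 and 7.66 CPM at AtCEP5 6 h. The 12 h libraries were all about the same and all above the 6 h ones (1.99 ± 0.24, adjusted p = 1.79e-04). With mock it stood at 2.80, 1.70 and 1.61 CPM at 12 h and at 2.84, 2.13 and 1.296 CPM at 6 h (−0.05, adjusted p = 0.972). The difference between the 2 changes was 2.04 and did not pass over all genes (adjusted p = 0.18). NRT1.8 averaged 1.301 CPM before treatment and 4.13 CPM at AtCEP5 24 h, so its 12 h level was the highest of the AtCEP5 time course. It overlaps AT4G21670 on the opposite strand.

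NRT2:1, the main high-affinity nitrate transporter of roots, fell the most among the named genes. It stood at 44.9, 64.9 and 136 CPM at AtCEP5 12 h, against 655, 364 and 335 CPM at AtCEP5 6 h. The fitted fold of 6 h over 12 h was 5.51. No 12 h library reached the lowest 6 h library (−2.46 ± 0.34, adjusted p = 7.08e-04). With mock it stood at 87.1, 82.5 and 105 CPM at 12 h and 439, 540 and 456 CPM at 6 h, a change of −2.39 (adjusted p = 8.04e-04). It averaged 3.26 CPM before treatment, so the 6 h level was high beside 0 h in both treatments.

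The other nitrogen genes that fell are a transporter and regulators. AMT2, an ammonium transporter, stood at 17.3, 21.5 and 29.4 CPM at AtCEP5 12 h, against 38.9, 35.4 and 39.5 CPM at 6 h (−0.74 ± 0.17, adjusted p = 0.0493). LBD37, a repressor of nitrate-responsive genes, stood at 135, 135 and 149 CPM at 12 h, against 246, 201 and 220 CPM at 6 h (−0.67 ± 0.15, adjusted p = 0.0293). HRS1, a nitrate-induced repressor that acts in nitrogen and phosphate signalling, stood at 145, 152 and 180 CPM at 12 h, against 224, 244 and 231 CPM at 6 h (−0.55 ± 0.11, adjusted p = 0.0192). The groups did not overlap for any of the 3, but the calls were fragile. LBD37 lost its call without any one of the 6 libraries (adjusted p 0.0587 to 0.29). AMT2 and HRS1 kept it only without 12 h replicate 3 (adjusted p up to 0.332 for AMT2 and 0.157 for HRS1). None was called with mock, at −0.44, −0.48 and −0.22. AT2G43500, annotated to the RWP-RK family to which the nitrate regulator NLP7 belongs, stood at 4.71, 5.57 and 6.24 CPM at 12 h, against 20.07, 15.5 and 13.0 CPM at 6 h. It was chosen after its values were seen. Its groups were well apart (−1.56 ± 0.22, adjusted p = 7.77e-04), and it was called in mock too (−0.95, adjusted p = 0.0393). Nitrate assimilation itself did not pass, with −1.04 for nitrate reductase NIA2 (adjusted p = 0.096) and −0.82 for nitrite reductase NIR1 (adjusted p = 0.0984). The dual-affinity transporter and sensor NRT1.1 changed by −0.76 (adjusted p = 0.267), and NRT1.5, which loads nitrate into the xylem, by 0.82 (adjusted p = 0.0533).

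Glucosinolates are sulfur-rich defence compounds of the cabbage family, and 19 of their 22 genes tested had a negative log2 fold change (median −0.42, mock −0.31). Of the 22, 3 (13.6%) fell and none rose, where 0.356% of all genes tested fell. Over all 19938 genes tested, 9866 changes were positive. MYB28, the main activator of aliphatic glucosinolate genes, stood at 17.7, 22.7 and 26.6 CPM at AtCEP5 12 h, against 49.0, 37.0 and 34.6 CPM at 6 h (−0.85 ± 0.19, adjusted p = 0.0312). SOT17, the sulfotransferase of the last step of the core pathway, stood at 17.3, 20.5 and 22.2 CPM at 12 h, against 47.0, 31.4 and 26.5 CPM at 6 h (−0.81 ± 0.19, adjusted p = 0.0493). IPMI1, an isomerase subunit of methionine chain elongation, stood at 30.2, 37.6 and 54.0 CPM at 12 h, against 87.3, 67.9 and 69.8 CPM at 6 h (−0.89 ± 0.17, adjusted p = 0.0124). All 3 were below their 6 h level in every 12 h library, and 6 h replicate 1 was the highest library for each. Without that library none of the 3 was called. MYB28 and IPMI1 also lost their calls without 12 h replicate 1 or 2, MYB28 also without 6 h replicate 2 (adjusted p up to 0.29 for MYB28 and 0.128 for IPMI1). SOT17 kept its call only without 6 h replicate 3 (adjusted p up to 0.472).

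**Figure D3:**
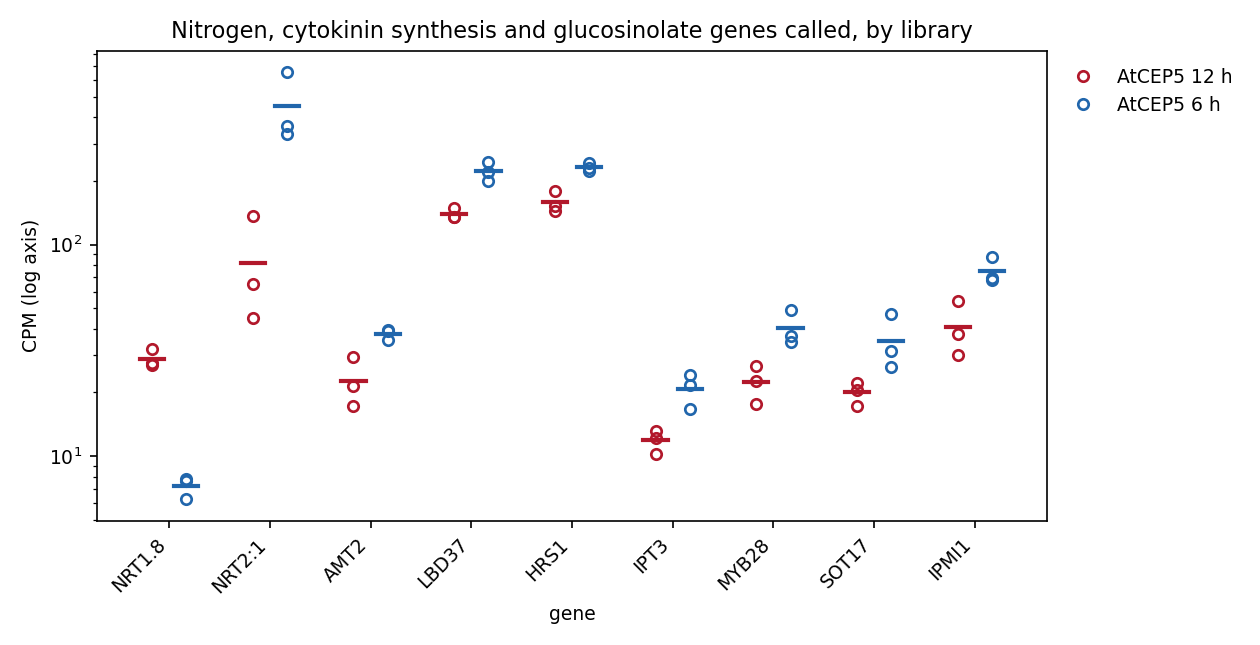
CPM on a log axis of 9 genes called between AtCEP5 12 h (red, left) and AtCEP5 6 h (blue, right). The genes are NRT1.8, NRT2:1, AMT2, LBD37, HRS1, IPT3, MYB28, SOT17 and IPMI1, points are the 3 libraries of a group and bars their mean. NRT1.8 is higher at 12 h, at 27.0 to 32.2 CPM, and the other 8 are lower.

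The CEP receptors did not change detectably between the times. XIP1, the receptor kinase CEPR1 that perceives CEP peptides, stood at 21.9, 19.3 and 24.9 CPM at AtCEP5 12 h, against 22.05, 22.7 and 18.6 CPM at 6 h, and the groups overlapped (0.06, adjusted p = 0.975). AT1G72180, its close relative CEPR2, changed by 0.19 (adjusted p = 0.905). Without 12 h replicate 3 the values were −0.02 for XIP1 and −0.19 for AT1G72180, so neither has a settled sign, and AT1G72180 overlaps AT1G72190 on the opposite strand.

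Auxin and cytokinin are the hormones most often linked to CEP peptides in roots, and their 4 lists held 1 called gene. None of 39 auxin response genes, 35 genes of auxin transport, synthesis and perception and 23 cytokinin response genes was called, with medians of −0.02, −0.09 and −0.05. IAA19, an auxin-induced repressor, changed by −0.25 (adjusted p = 0.801), and RR5, an early cytokinin response regulator, by −0.17 (adjusted p = 0.903). Of 32 genes of cytokinin metabolism and signalling, IPT3 alone was called (3.12%, against 0.672% of all genes tested). It encodes the nitrate-responsive isopentenyltransferase of the phloem, and stood at 10.27, 12.2 and 13.1 CPM at AtCEP5 12 h, against 24.2, 21.7 and 16.6 CPM at 6 h. The 12 h libraries were all below the lowest 6 h library (−0.81 ± 0.16, adjusted p = 0.0148), while mock changed by −0.25 (adjusted p = 0.565). Its call was lost without 12 h replicate 1 or 2 or 6 h replicate 1 or 2 (adjusted p up to 0.154), and the difference from mock did not pass (−0.56, adjusted p = 0.995).

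Of 21 ethylene genes 2 were called (9.52%, against 0.672% of all genes tested), in opposite directions. EFE, an ACC oxidase that makes ethylene, stood at 55.3, 45.4 and 39.7 CPM at AtCEP5 12 h, against 19.5, 19.6 and 18 CPM at 6 h (1.299 ± 0.17, adjusted p = 3.94e-04). It kept its call without each library, and rose with mock too (0.77, adjusted p = 0.036). EBF2, an F-box protein that degrades the ethylene regulator EIN3, stood at 99.4, 106 and 101 CPM at 12 h, against 160, 167 and 158 CPM at 6 h. The replicates were tight in both groups (−0.67 ± 0.13, adjusted p = 0.0126). With mock EBF2 stood at 110, 98.1 and 85.9 CPM at 12 h and 88.8, 95.2 and 102 CPM at 6 h (0.04, adjusted p = 0.94), and the difference was −0.71 (adjusted p = 0.715). It lost its call without 12 h replicate 1 or 2 or 6 h replicate 1 or 2 (adjusted p up to 0.0887), and overlaps AT5G25340 and AT5G03965 on the opposite strand.

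Clock and light genes moved little past the test, though several lists leaned one way. Over all 19938 genes tested, 9866 had a positive log2 fold change and 0.672% were called. Signs within a list come from the same 6 libraries and are not separate observations. Of 12 morning-phased clock genes 11 had a positive log2 fold change (median 0.49), with 1 called, while with mock the median was −0.28 and none was called. The member called was RVE8, a morning transcription factor that activates evening genes. RVE8 stood at 12.0, 9.98 and 6.81 CPM at AtCEP5 12 h, against 3.95, 5.07 and 3.69 CPM at 6 h (1.18 ± 0.24, adjusted p = 0.017). With mock it stood at 7.998, 6.65 and 4.62 CPM at 12 h and 8.94, 7.29 and 5.53 CPM at 6 h, and the difference of 1.36 did not pass (adjusted p = 0.596). The core oscillator genes CCA1 and LHY, which repress evening genes, changed by 1.11 (adjusted p = 0.176) and 0.83 (adjusted p = 0.452). CCA1 stood at 8.42, 6.14 and 5.76 CPM at 12 h, against 2.96, 3.67 and 2.82 CPM at 6 h. Its groups did not overlap, yet it did not pass. None of 11 evening-phased genes was called (median −0.15, 9 negative), with −0.31 for TOC1 and −0.55 for GI. PRR7, a morning-phased repressor, changed by 0.14 (adjusted p = 0.948). RVE8 lost its call without 12 h replicate 1 or 2 or 6 h replicate 1 or 3 (adjusted p up to 0.129).

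HFR1, a bHLH factor of shade and light signalling, was called among 24 light signalling genes (4.17%, against 0.672% of all genes tested). It stood at 35.2, 26.6 and 25.1 CPM at AtCEP5 12 h, against 11.2, 17.9 and 17.1 CPM at 6 h (0.91 ± 0.20, adjusted p = 0.0358). It kept its call only without 12 h replicate 3 (adjusted p up to 0.315). None of 21 photosynthesis genes was called, although 20 had a positive log2 fold change (median 0.49, mock 0.04). The 7 markers of shoot tissue summed to 156 to 265 FPKM at 12 h and 125 to 180 FPKM at 6 h, and these ranges overlapped. Likewise 20 of 24 sugar starvation markers were positive with none called (median 0.53, mock 0.28). ASN1, the dark- and starvation-induced asparagine synthase, stood at 65.4, 54.6 and 41.2 CPM at 12 h, against 20.98, 26.7 and 49.4 CPM at 6 h, and overlapped between the times (0.73, adjusted p = 0.677).

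Growth-related lists held no called member. Their signs stand beside 9866 positive changes among all 19938 genes tested. Of 31 genes of G2/M and cytokinesis 26 had a negative log2 fold change (median −0.22, mock 0.09), of 28 S-phase genes 21 had one (median −0.08, mock 0.04), and of 19 ribosome biogenesis genes 16 had one (median −0.16, mock −0.15). None of 21 root meristem genes was called (median −0.01). The lists for root hair, cell expansion, xylem, phloem, flavonoid, jasmonate, sulfur, heat, sugar transport, autophagy and clock outputs held none either. In all, 22 of 33 lists had no called member.

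**Figure D4:**
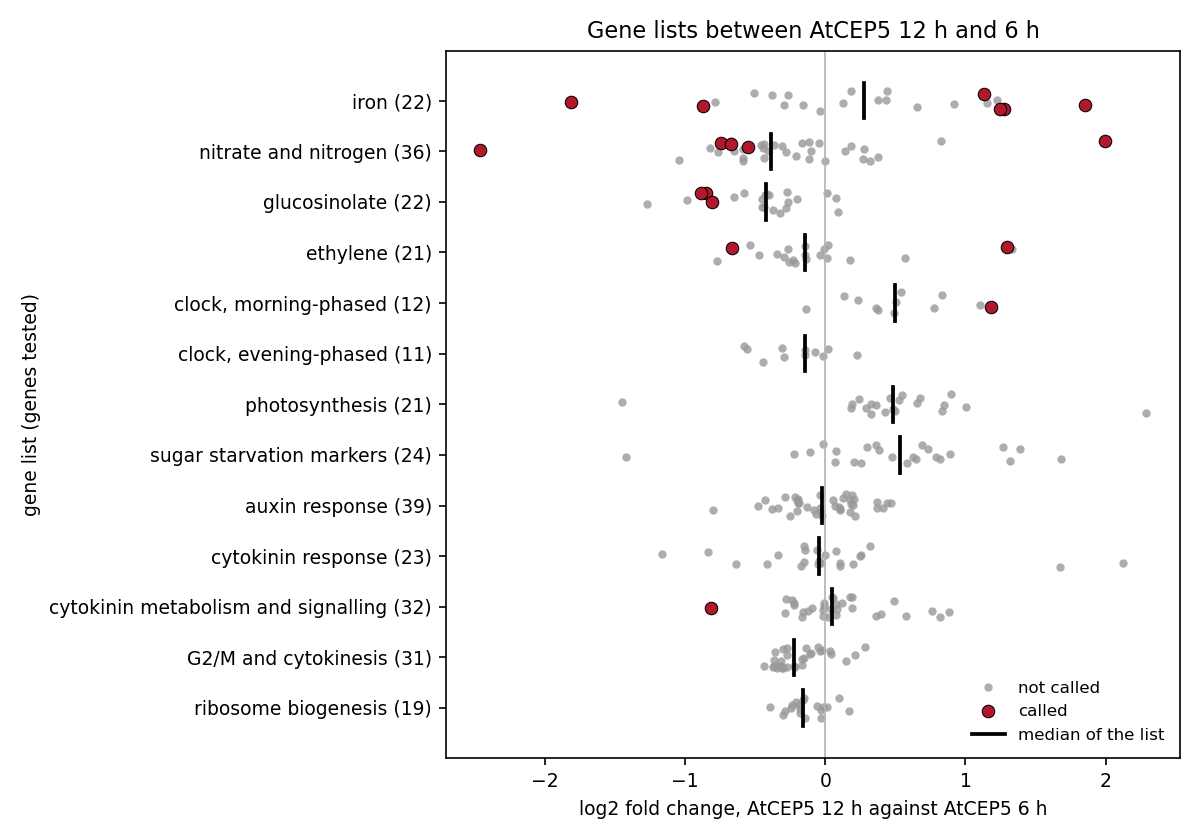
Log2 fold changes of AtCEP5 12 h against 6 h for the tested genes of 13 lists. Each point is a gene, red where called, the black bar is the median of the list, and the number of genes tested stands beside each name. The iron list has called genes on both sides, the nitrogen and glucosinolate medians lie at −0.38 and −0.42, and the photosynthesis and sugar starvation medians lie at 0.49 and 0.53 with no called gene.

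Single members of other lists were called. PHF1, which brings phosphate transporters to the plasma membrane, stood at 36.8, 43.3 and 51.1 CPM at AtCEP5 12 h, against 86.2, 86.2 and 75.6 CPM at 6 h (−0.92 ± 0.15, adjusted p = 0.00378). It was the only one called of 18 phosphate genes (5.56%, against 0.672% of all genes tested). PHF1 kept its call without each library, and fell with mock (−0.66, adjusted p = 0.0384). ABCG6, a half-size ABC transporter of suberin deposition, stood at 55.1, 60.0 and 56.1 CPM at 12 h, against 113, 106 and 116 CPM at 6 h (−0.97 ± 0.21, adjusted p = 0.0307). Its groups were well apart, but the call was lost without any one of the 6 libraries (adjusted p 0.0787 to 0.169). HB-12, a homeobox factor induced by abscisic acid and drought, rose by 1.76 ± 0.38 (adjusted p = 0.0304) at a low level of 5.79, 4.26 and 3.26 CPM at 12 h, against 0.905, 2.03 and 1.01 CPM at 6 h. HB-12 lost its call without 12 h replicate 1 or 2 or 6 h replicate 1 or 3 (adjusted p up to 0.244).

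Transporters outside the lists were called too. The nodulin MtN21/EamA-like family holds the UMAMIT proteins, which carry amino acids across membranes. Of 36 of its genes tested 3 rose and 1 fell, where 0.672% of all genes were called. The family was chosen after its values were seen, so its share called is a description only. UMAMIT29 stood at 48.3, 59.6 and 66.3 CPM at AtCEP5 12 h, against 31.8, 27.5 and 21.97 CPM at 6 h (1.1 ± 0.17, adjusted p = 0.00204), and mock changed by 1.98. UMAMIT14, which unloads amino acids from the root phloem, stood at 38.7, 26.5 and 21.1 CPM at 12 h, against 87.5, 66.6 and 49.1 CPM at 6 h (−1.23 ± 0.23, adjusted p = 0.0123). UMAMIT14 and UMAMIT29 thus moved in opposite directions. UMAMIT36 rose by 1.75 but kept its call only without 6 h replicate 1 (adjusted p up to 0.164). UMAMIT41 rose by 0.74 and lost its call without 12 h replicate 2 or 6 h replicate 1 (adjusted p up to 0.112). UMAMIT14 lost its call without 12 h replicate 2 or 6 h replicate 1 or 2 (adjusted p up to 0.131).

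NUDT8, a nudix hydrolase, stood at 53.2, 42.8 and 20.8 CPM at AtCEP5 12 h, against 5.51, 8.66 and 11.3 CPM at 6 h (2.19 ± 0.42, adjusted p = 0.0134). TLL1, annotated as a triacylglycerol lipase-like protein, stood at 140, 121 and 162 CPM at 12 h, against 61.5, 60.2 and 48.0 CPM at 6 h (1.32 ± 0.23, adjusted p = 0.00681). HKT1, which retrieves sodium from the xylem sap, stood at 7.41, 7.81 and 7.10 CPM at 12 h, against 4.03, 2.34 and 2.53 CPM at 6 h (1.33 ± 0.29, adjusted p = 0.0327). The groups of each of the 3 did not overlap, which the rule for naming them required. Mock changed by 0.14 for TLL1 (adjusted p = 0.865), and the difference of 1.18 between the treatments did not pass (adjusted p = 0.948). NUDT8 lost its call without 12 h replicate 1 or 2 or 6 h replicate 1 or 2 (adjusted p up to 0.131), and HKT1 without any one library except 12 h replicate 3 (adjusted p up to 0.175). Further genes that rose were MYB67, a MYB transcription factor, by 1.57, the organic cation and carnitine transporter OCT2 by 1.52, the cytochrome P450 CYP71B13 by 1.49 and the gibberellin-regulated GASA5 by 1.35. OCT2 and GASA5 lost their calls without any one of the 6 libraries (adjusted p up to 0.161 and 0.232), CYP71B13 without 12 h replicate 2 or 3 or 6 h replicate 1 or 2 (adjusted p up to 0.191), and MYB67 without 6 h replicate 1 (adjusted p = 0.0521).

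Chitinases degrade the chitin of fungal cell walls. Of 18 tested, HCHIB rose, AT2G43620, AT4G01700, AT4G19720 and ChiC fell, and 15 had a negative log2 fold change (median −0.25). The share called over all genes was 0.672%, and 9866 of 19938 genes tested had a positive log2 fold change. HCHIB, a basic chitinase, stood at 149, 123 and 103 CPM at AtCEP5 12 h, against 42.3, 46.2 and 69.3 CPM at 6 h (1.25 ± 0.20, adjusted p = 0.00405), and mock changed by 0.17. With mock AT4G01700 (−0.86, adjusted p = 0.00428), AT4G19720 (−1.18, adjusted p = 0.00382) and ChiC (−0.77, adjusted p = 0.049) were called lower as well, while AT2G43620 changed by 0.31 (adjusted p = 0.859), against −2.29 with AtCEP5. HCHIB overlaps AT3G12502 on the opposite strand and lost its call without 6 h replicate 1 or 2 (adjusted p up to 0.0682). ChiC, AT4G01700 and AT2G43620 lost their calls without any one of the 6 libraries (adjusted p up to 0.311), and AT4G19720 without replicate 1 or 2 of either time (adjusted p up to 0.102). AT4G01700 also overlaps genes on the opposite strand. This family was chosen after its values were seen.

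The other named genes that fell include regulators, cell wall proteins and enzymes. ABR1, an AP2/ERF repressor of abscisic acid responses, stood at 1.16, 2.096 and 2.398 CPM at AtCEP5 12 h, against 8.72, 7.02 and 6.22 CPM at 6 h. The groups were well apart (−1.96 ± 0.30, adjusted p = 0.00171), the call held without each library, and mock fell by 1.33 on the log2 scale. TCP4, a TCP factor that limits cell proliferation in leaves, fell by 1.31, the AN1 zinc finger gene PMZ by 1.28, the laccase LAC16 by 1.15, the glycoprotein gene PELPK2 by 1.05 and the nicotinamidase NIC3 by 1.004 on the log2 scale. DRL1, a reductase of pollen wall polyketide synthesis, fell by 0.99, and GLR2.1, a glutamate receptor-like channel, and FAF3, a FANTASTIC FOUR-like gene, fell by 0.93 each. With mock, PMZ (−1.20, adjusted p = 0.0357), PELPK2 (−1.01, adjusted p = 0.0473) and NIC3 (−0.87, adjusted p = 0.0261) were called lower as well. TCP4, LAC16, DRL1 and GLR2.1 also had negative mock changes, at −0.79, −0.73, −0.80 and −0.55, but were not called there. ABR1 overlaps AT5G64760, GLR2.1 overlaps AT5G27093 and DRL1 overlaps AT4G35410 on the opposite strand. LAC16, PELPK2 and DRL1 lost their calls without any one of the 6 libraries (adjusted p up to 0.358). PMZ kept its call only without 12 h replicate 1 (adjusted p up to 0.213), and GLR2.1 only without 12 h replicate 3 (adjusted p up to 0.33). TCP4 and NIC3 lost theirs without replicate 1 or 2 of either time (adjusted p up to 0.123), and FAF3 without 12 h replicate 2 or 3 or 6 h replicate 1 or 2 (adjusted p up to 0.22). ATC, a floral repressor of the CENTRORADIALIS family, did not pass (−1.60, adjusted p = 0.0783).

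The 3 mock libraries of 12 h and the 3 of 6 h share none with AtCEP5, and the same comparison in them called 144 genes (0.722%), 49 (0.246%) higher and 95 (0.476%) lower, with 2210 (11.1%) at an unadjusted p under 0.05. Of the 134 genes called with AtCEP5, 126 (94.0%) changed in the same direction with mock, against 60.0% of all genes tested. The overlap of the called sets was 53 genes, 39.6% of the AtCEP5 set and 36.8% of the mock set, and none was called in opposite directions. Of the 63 that rose with AtCEP5, 17 (27.0%) were also called with mock, and of the 71 that fell, 36 (50.7%) were. The contrast between the directions was not tested. The median log2 fold change of the 63 that rose was 1.13 with AtCEP5 and 0.59 with mock, and that of the 71 that fell was −0.91 with AtCEP5 and −0.76 with mock. The AtCEP5 medians are a description, since the calls chose these genes. The difference between treatments had an unadjusted p under 0.05 for 27 of the 63 and 8 of the 71. Among all genes tested, 756 (3.79%) had such a p, and only OSM34 passed after adjustment. The calls chose genes with a large AtCEP5 change, and that change is part of the tested difference. More small p-values in the called sets are therefore built in, so no conclusion is drawn from these counts.

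**Figure D5:**
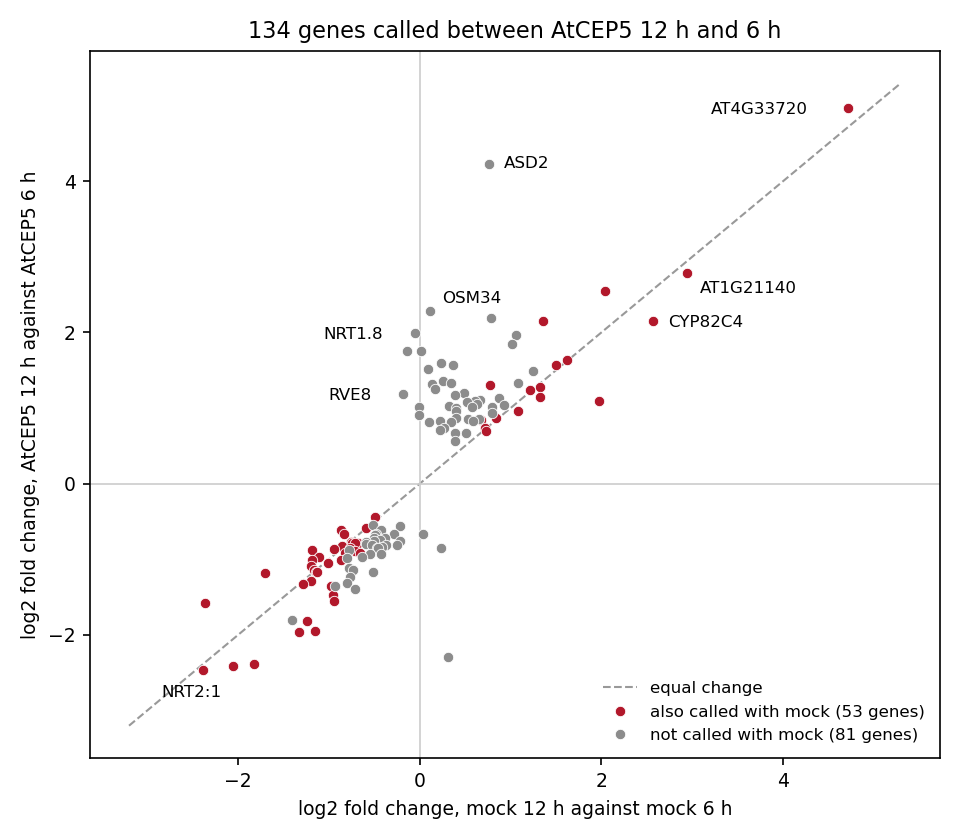
Log2 fold change of 12 h against 6 h with AtCEP5 (vertical axis) and with mock (horizontal axis) for the 134 genes called with AtCEP5. Red points are the 53 genes also called with mock, grey points the 81 that were not, and the dashed line marks equal change. OSM34, NRT1.8 and RVE8 lie near 0 on the mock axis, while NRT2:1, CYP82C4 and AT1G21140 lie close to the line.

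The next interval, AtCEP5 24 h against 12 h, shares the 12 h libraries, so its values are given side by side only. Over all genes 384 (1.93%) were called there, 155 (0.777%) higher and 229 (1.15%) lower at 24 h. NRT1.8 changed by −2.80 (adjusted p = 1.61e-06), CYP82C4 by −2.45 (adjusted p = 4.5e-04) and FRO2 by −2.24 (adjusted p = 9.37e-05) on the log2 scale. CYP82C4 stood at 30.2, 35.2 and 47.6 CPM at 24 h, and FRO2 at 64.9, 77.9 and 94.7 CPM, all below their 12 h libraries. NAS1 changed by −0.83 (adjusted p = 0.041) and OPT3 by −0.82 (adjusted p = 0.0423). OSM34 stood at 419, 364 and 509 CPM at 24 h, above its 12 h libraries (1.02, adjusted p = 0.00129), and TLL1 changed by 0.99 (adjusted p = 0.0205). UMAMIT14 changed by 1.49 (adjusted p = 7.64e-04) and ABCG6 by −1.64 (adjusted p = 2.14e-04). NRT2:1 changed by −0.26 (adjusted p = 0.905) and AT3G25190 by −0.05 (adjusted p = 0.986), and neither passed.

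Promoters were read from 250 bases before the annotated start, from RefSeq TAIR10.1, for 19889 of the 19938 genes, and searched on both strands for 4 motifs. The G-box CACGTG, bound by bHLH and bZIP factors, was in 10 of the 63 promoters of genes that rose (15.9%), in 1 of the 71 of genes that fell (1.41%) and in 1445 of all (7.27%). The genes that rose and carry it are AT1G73120, TLL1, AT5G54300, NUDT8, SIP2, AT3G20340, GBF3, MAPKKK17, AT4G03420 and HKT1, and the one that fell is OPT3. The evening element AAAATATCT was in none of the 63, in 1 of the 71 and in 2.37% of all. The telo box AAACCCTA was in none of either set and in 3.59% of all, and the site II element TGGGCC was in 5 of the 63 (7.94%), 5 of the 71 (7.04%) and 16.3% of all. These are descriptions of letters in a window, and no binding was measured. The promoters below show the G-box, in capitals, in 3 genes that rose with symbols (NUDT8, TLL1 and HKT1) and in OPT3, the one that fell. OSM34, the gene that differed from mock, had none of the 4 motifs and is printed in lower case throughout. The G-box starts 22 bases before the start of NUDT8, 107 before TLL1, 128 before HKT1 and 78 before OPT3. The windows are chr5:19183273-19183522 for NUDT8, chr1:17123535-17123784 for TLL1 and chr4:6391604-6391853 for HKT1 on the plus strand, and chr4:9250344-9250593 for OPT3 and chr4:7026225-7026474 for OSM34 on the minus strand. Each runs 5′ to 3′ on the gene's strand, and none overlaps another annotated gene.
NUDT8: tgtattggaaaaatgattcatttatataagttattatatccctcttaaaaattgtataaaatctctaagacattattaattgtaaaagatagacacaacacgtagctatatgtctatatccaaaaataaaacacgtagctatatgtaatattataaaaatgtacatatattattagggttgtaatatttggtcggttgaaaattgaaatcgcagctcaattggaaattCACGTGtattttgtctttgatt
TLL1: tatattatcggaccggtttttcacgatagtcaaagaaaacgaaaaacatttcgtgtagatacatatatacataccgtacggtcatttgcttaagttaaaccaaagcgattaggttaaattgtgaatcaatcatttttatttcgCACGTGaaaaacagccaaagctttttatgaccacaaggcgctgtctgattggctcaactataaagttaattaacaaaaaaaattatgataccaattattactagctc
HKT1: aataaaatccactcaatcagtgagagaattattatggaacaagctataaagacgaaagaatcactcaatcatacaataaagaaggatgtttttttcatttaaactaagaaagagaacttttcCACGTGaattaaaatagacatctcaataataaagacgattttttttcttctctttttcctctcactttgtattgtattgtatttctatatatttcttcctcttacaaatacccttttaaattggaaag
OPT3: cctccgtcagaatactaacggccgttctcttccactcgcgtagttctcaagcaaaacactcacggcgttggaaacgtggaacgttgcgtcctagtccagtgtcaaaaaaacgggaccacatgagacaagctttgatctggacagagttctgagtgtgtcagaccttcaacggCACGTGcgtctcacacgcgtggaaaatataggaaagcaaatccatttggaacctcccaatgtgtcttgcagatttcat
OSM34: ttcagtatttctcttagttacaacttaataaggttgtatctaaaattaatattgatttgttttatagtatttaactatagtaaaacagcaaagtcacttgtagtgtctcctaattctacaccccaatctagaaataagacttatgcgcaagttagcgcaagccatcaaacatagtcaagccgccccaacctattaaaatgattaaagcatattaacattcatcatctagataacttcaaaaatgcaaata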

How the data were processed

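The authors deposited raw read counts by gene, with a matching FPKM table, for all 21 libraries. Per the labels' protocols, root RNA was extracted with TRIzol, treated with DNase and made into poly-A libraries with a TruSeq RNA kit. The submitters' processing notes name the tools HTSeq, STAR 2.7.8a and StringTie 2.1.3. Build and strand setting: not given in the sources used here. RefSeq's TAIR10.1 annotation holds 32548 of the 32833 deposited genes, 32532 with identical ends, so coordinates are given on that reference. The deposited FPKM values above 0 were all 10 times those recomputed from the counts (relative tolerance 1e-06), and were divided by 10.

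Counts were tested with edgeR 4.0.16 in R 4.3.3 (quasi-likelihood test, TMM scaling, filter on low counts by group), with all 21 libraries in 1 fit of 7 group means and 14 residual degrees of freedom. Adjustment was Benjamini-Hochberg over 19938 genes, with calls at an adjusted p under 0.05. Rose and fell mean higher and lower at 12 h among called genes. Fold changes are log2, 12 h minus 6 h. Their standard error (SE) was taken as the size of the change divided by the square root of the test's F statistic. It is not reliable for changes near 0. CPM values use library sizes multiplied by TMM factors. Mock 12 h against 6 h and the difference between the treatments were contrasts of the same fit. Intervals cover counting error only. The scripts were tested on simulated counts. No paralogue copy of at least 95% identity over 100 bases was found with BLAST 2.17.0 for any of the 145 named or called genes. Of the 134 called genes, 21 overlap a gene on the opposite strand, whose reads cannot be told apart where strand was not used, and 2 overlap one on the same strand.

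The members, the 33 gene lists and the tests were chosen with earlier results of these data known. Named genes were the 14 largest changes in each direction among called genes with a symbol, a mean of at least 2 CPM and non-overlapping groups, up to 3 called members of each list with the smallest adjusted p, and 13 genes of the CEP pathway, hormones and clock whatever their p, 2 of which have no symbol in the reference and were not analysed here. Other genes in the text are called list members, families by product text or genes chosen after their values were seen. The families were chosen after values of called members were seen, so a share called above that of all genes is built in. Families read the same way and not described were HXXXD-type acyl-transferases (2 rose and 1 fell of 42 tested), glutamate receptor-like genes (1 fell of 15) and dirigent-like genes (1 fell of 19). Alternatives were DESeq2 1.42.0, RLE scaling, a replicate block, 2 other filters, only the groups compared, limma 3.58.1 on log2(FPKM + 1) and log2(FPKM + 0.1), ribosomal RNA genes left out, and each library left out in turn.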

Additional observations from a re-analysis of the deposited data

Results flagged for a closer look

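OSM34 was singled out because its change between 6 and 12 h differed between the treatments in a test of that difference. It was a fitted 4.86-fold higher at AtCEP5 12 h than at AtCEP5 6 h, and mock changed by 0.11 on the log2 scale (adjusted p = 0.855). The difference of the log2 fold changes, AtCEP5 minus mock, was 2.17 ± 0.25 (edgeR's quasi-likelihood test, adjusted p = 2.22e-04). All 3 AtCEP5 12 h libraries, at 185 to 245 CPM, lay above all 3 AtCEP5 6 h libraries, at 41.8 to 47.1 CPM.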

How the results depend on the processing

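The number of genes called with AtCEP5 was 134, and within 1.5 times of it, at 114 to 174, with RLE scaling, 2 other filters, the replicate block over all libraries, ribosomal RNA genes left out and limma on log2 FPKM. It was 282 with DESeq2, 206 with only the groups compared, 58 with the replicate block and only these groups, and 24 to 146 without 1 of the 6 libraries. For mock, the count was 318, 353 and 223 under the first 3 of these settings and 30 to 94 without 1 library, against 144, and limma moved the share higher to 51.2% and 54.5%, against 34.0%. The difference between treatments called 1 gene under most settings, 9 with DESeq2, 4 with limma on log2(FPKM + 1) and 2 without both libraries rich in ribosomal RNA, a setting chosen after seeing the data. Those libraries were AtCEP5 12 h replicate 3 and mock 6 h replicate 2. Limma on log2(FPKM + 0.1) moved the median of that difference over all genes to −0.1043. Of the called genes, 15 were called under every setting run. Without 1 library, XIP1 ranged over −0.02147 to 0.171 and AT1G72180 over −0.1863 to 0.4375, both negative only without AtCEP5 12 h replicate 3; the cause was not tested. Of 839 alternative values of the named genes and of the OSM34 difference, 645 kept their direction and side of the threshold, 188 lost the call, 4 gained it and 2 reversed. Same-numbered 12 h and 6 h libraries did not deviate together (residual correlations −0.2225, −0.02686 and −0.2058 with AtCEP5), so the numbers were not taken as pairs; the block over all libraries called 118. Low counts limit genes near 1 CPM, where 1 library holds few reads.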
